A study of Mus musculus with 10 samples.

Results

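Microglia kept in a mixed glial culture were compared with microglia isolated from adult mouse brain. The comparison used the 2 in vitro and the 2 adult libraries of a series of 10 single cell RNA-seq libraries, which also holds slice cultures of 3 ages. The libraries were chosen by their labels, and no measured value entered the choice. Cells with at most 5% mitochondrial UMIs, at least 400 genes and at most 30000 UMIs were kept, where a UMI is a molecular tag that counts 1 captured RNA molecule. Of 12801 barcodes in the 4 libraries this removed 376 and left 12425 cells, of 19059 cells kept in the whole series. Counts were summed over the cells of a library, and the library was the unit of every comparison.

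All samples came from C57BL/6 mice, and the labels name no drug, transgene or deletion for any of them. The in vitro libraries hold microglia that grew for 3 weeks in a mixed glial culture prepared from cortices of newborn mice with the meninges removed, in serum-containing medium, and were collected from the medium. The adult libraries hold microglia of adult brain tissue, which was homogenised in the cold and cleared of myelin on Percoll. Both kinds were sorted as live cells with high CD11b and intermediate CD45 and captured as 3′ single cell libraries (10x Genomics v2). Age at isolation, culture, serum and the way cells were released therefore differ together between the groups and cannot be told apart, and the labels do not say how many animals stand behind a library. Where named, the 2 libraries of slice 3 weeks, microglia sorted from brain slices after 3 weeks of culture, give a further condition. The same in vitro libraries enter that comparison, so its values are set beside the main ones and do not check them.

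Microglia are the resident macrophages of the brain parenchyma. In the healthy adult brain they carry a set of surface receptors through which they sense nucleotides, chemokines and lipids, and this state is known to depend on signals such as TGF-beta and CSF1 receptor ligands from neighbouring cells. Damage, demyelination and growth in culture are known to bring a different state, with genes for lipid uptake, lysosomal degradation and matrix remodelling.

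After filtering, the adult libraries held 3799 and 3527 cells with medians of 3257 and 1858 UMIs per cell, and the in vitro libraries 2417 and 2682 cells with medians of 12858 and 13966 UMIs. The in vitro cells thus yielded several times more UMIs per cell in both libraries, and all levels below are relative. They are given as CPM, counts scaled to a common library total after a trimmed mean factor (TMM), so more RNA per cell and better capture cannot be told apart. A count of 0 in both adult libraries allows up to 0.14 CPM and in both in vitro libraries up to 0.0449 CPM (3 counts over the group, counting error only). Between 11 and 21 barcodes were shared by each of the 6 pairs of libraries. Adult replicate 1 carries another study label than the other 3 libraries, so leaving it out is also the comparison within 1 label.

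The sorted population was checked against markers. Of 10 microglia and macrophage markers, 7 were lower in vitro and none was higher, with summed levels of 20210 and 17960 CPM in vitro and 41270 and 38960 CPM in adult microglia. Macrophage markers were thus present in all 4 libraries, but they do not tell microglia from other macrophages. The microglial markers Sall1 and Siglech were near 0 in vitro, at 0.321 and 0.0842 CPM and 0.385 and 0.0561 CPM, so these markers go against the label there, and in vitro microglia below means the cells sorted from that culture. Of 6 markers of border macrophages, the macrophages of meninges and vessels, 5 were higher in vitro, with summed levels of 2476 and 2375 CPM against 10.1 and 5.02 CPM. The platelet factor gene Pf4 carried most of that sum, and the mannose receptor Mrc1 was at 383 and 341 CPM in vitro against 4.39 and 3.35 CPM. Lyve1 and Cd163 were near 0, at 0.707 and 0.309 CPM and 0.803 and 1.23 CPM in vitro. On cells thinned to 1000 UMIs, 78.9% and 75.8% of in vitro cells held more UMIs of the border list than the 95th percentile of adult cells, which was 0. Marker sums of neurons, fibroblasts, lymphocytes, monocytes and neutrophils lay under 8 CPM in all 4 libraries. The astrocyte sum was 7.51 and 10.1 CPM in vitro against 140 and 132 CPM, nearly all of the latter from Slc1a3, the oligodendrocyte sum 84.8 and 74.0 against 123 and 136 CPM, mostly from Cnp, and the endothelial sum 419 and 427 against 803 and 724 CPM, mostly from Bsg. The part of other cell types in the values below was not tested.

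Adult replicate 1 alone held haemoglobin RNA, 1680 CPM over the erythroid markers against 0 CPM in adult replicate 2. The groups also differed in Y-linked transcripts, which were named after their values were seen: Ddx3y was at 21.97 and 14.7 CPM in vitro and at 0 in both adult libraries, while Xist was at 325 and 427 CPM against 1207 and 1100 CPM and was not called. The call for Ddx3y was lost on each omission of 1 library. The sex of the animals and the group can therefore not be told apart.

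A gene was called where edgeR's quasi-likelihood test gave an adjusted p below 0.05 (Benjamini-Hochberg over all 12157 genes tested) and the fold change was above 1.5, and "rose" and "fell" below are used of in vitro against adult for such genes. By this rule 50.8% of the genes tested differed. In vitro 2719 genes rose, 22.4% of those tested, and 3461 fell, 28.5%. Without scaling to a common total the split was another, since 10506 of the tested genes had more UMIs per cell in both in vitro than in both adult libraries and 731 had fewer. The percentages called are the background for each list below. The biological coefficient of variation between libraries was 18.28%. The split depends on scaling, since 44% of the calls were rises, whereas scaling by library size alone shifted all genes by -0.30 on the log2 scale and left 29.9% as rises. A permutation of 2 libraries against 2 cannot give a two-sided p below 0.333, so values outside the fit over all genes carry no test, and p-values measure the spread between these libraries, which may be technical.

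Fold changes at the extremes were very large. At a log2 fold change beyond 3, 624 genes were called higher and 681 lower, and 124 of the genes that rose had no count in either adult library, as 115 of those that fell had none in vitro. A ratio against a group with no count is given as a lower bound, computed against 3 counts over the group, and a fitted log2 value for such a gene rests on the prior count and is no bound. Errors after ± are standard errors of the fitted log2 fold change.

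The 12 largest rises by fitted log2 fold change among genes of at least 100 CPM were led by Gpnmb, a glycoprotein of phagocytic macrophages. Its level was 599 and 760.4 CPM in vitro and 0 in both adult libraries, at least 4851-fold higher. Clec4d, a C-type lectin receptor, was at 170.2 and 179.6 CPM and again at 0 in both adult libraries, at least 1249-fold higher. Cd93, a receptor that takes part in the clearance of dying cells, was at 112 and 115 CPM against 0, at least 811-fold higher. For these 3 genes every in vitro library was high and no adult cell pool held a single count.

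Wfdc17, a secreted protein of macrophages, was at 3711 and 3884 CPM against 1.25 and 2.19 CPM, 2211-fold higher (edgeR adjusted p = 1.1e-06). Ms4a7, a membrane protein of macrophages, was at 2440.1 and 2439.5 CPM against 2.49 and 2.19 CPM. Mgst1, a microsomal glutathione transferase, was at 389.6 and 382 CPM against 0.439 and 0 CPM. The in vitro libraries lay within 1.5-fold of each other for these genes, and the adult libraries held almost none of the RNA. Spp1 (osteopontin) rose 787-fold, from 5.05 and 8.37 CPM to 3893 and 6669 CPM, with in vitro replicate 2 the higher. The remaining large rises, Cxcl14, Clec4n, Colec12, Anxa1 and S100a6, each had under 1 CPM in both adult libraries. Anxa1 and S100a6 differed more between the in vitro libraries, at 147 and 236 CPM and 102 and 243 CPM.

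The 12 largest falls formed a set of another kind. Siglech, a sialic acid receptor used as a microglial marker, was at 1169 and 885 CPM in adult microglia and at 0.385 and 0.0561 CPM in vitro, 4651-fold lower (edgeR adjusted p = 2.74e-07). Sparc, a secreted protein that binds matrix, was at 2858 and 2249 CPM against 1.57 and 0.168 CPM, 2931-fold lower. Upk1b, a tetraspanin, was at 133 and 155 CPM against 0 in both in vitro libraries, at least 3207-fold lower. These were near complete losses, with the 2 adult libraries close to each other.

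Adgrg1, an adhesion G protein-coupled receptor, fell from 305 and 268 CPM to 0.193 and 0.0561 CPM, and Slc1a3, a glutamate transporter, from 136 and 129 CPM to 0.0642 and 0.0281 CPM. Klk8, a secreted serine protease, was at 133 and 118 CPM against 0. Thrsp and Gp9 had 1 count in each in vitro library. The other 4 of the 12 rested on 1 library: Hbb-bs, Hba-a1 and Hba-a2 and the thyroxine carrier Ttr, an RNA typical of choroid plexus, were at 779.5 and 0, 394 and 0, 357 and 0 and 620.2 and 0 CPM in the adult libraries. Without adult replicate 1 none of these 4 was called, and the sign for Ttr turned, to 1.38 on the log2 scale.

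**Figure D1:**
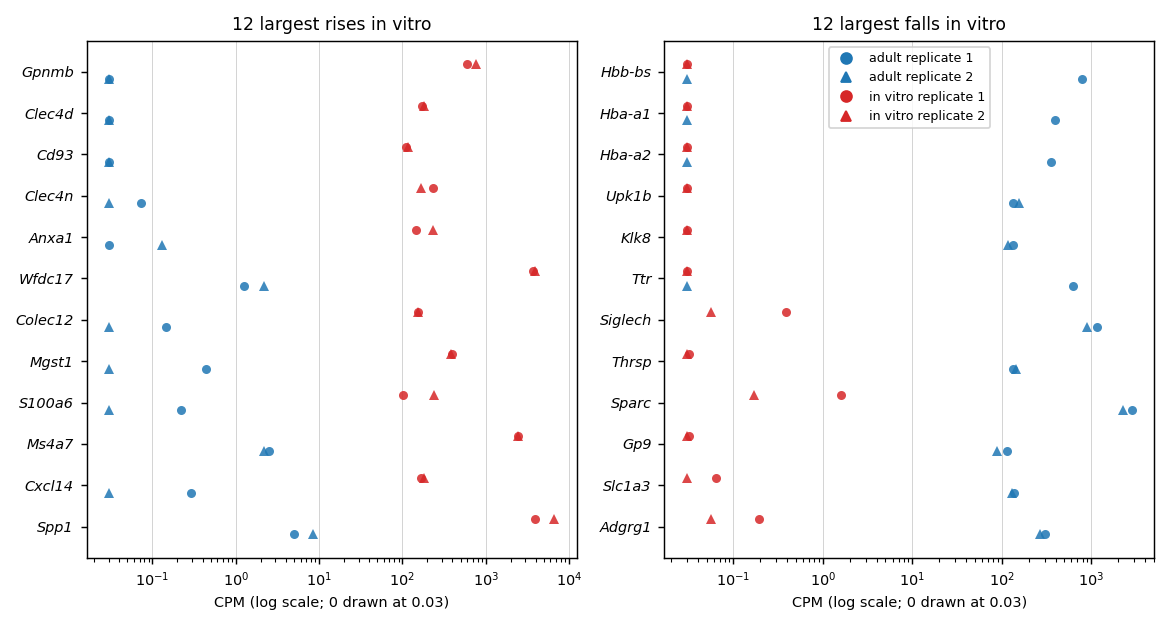
Level of the 12 largest rises (left) and the 12 largest falls (right) in each of the 4 libraries, in CPM on a log axis with values of 0 drawn at 0.03; points are libraries. Gpnmb, Clec4d and Cd93 sit at 0 in both adult libraries, and the haemoglobin genes and Ttr are high in adult replicate 1 only.

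A few RNAs took a large share of the in vitro transcriptome. Apoe, the main lipid carrier of the brain, made up 6.78% and 5.87% of all UMIs in vitro and 0.113% and 0.0765% in adult microglia. Lyz2, the macrophage lysozyme, took 3.39% and 3.28% against 0.0441% and 0.0433%. The ferritin light chain gene Ftl1 took 3.28% and 3.45% against 0.344% and 0.421%. Both libraries of a group gave like shares. In the other direction, the nuclear RNA Malat1 fell from 4.01% and 5.16% in adult microglia to 1.48% and 1.42%. The concentration as such was alike, since the 10 most abundant genes held 22.9% and 22.3% of UMIs in vitro and 20.6% and 20.4% in adult microglia.

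**Figure D2:**
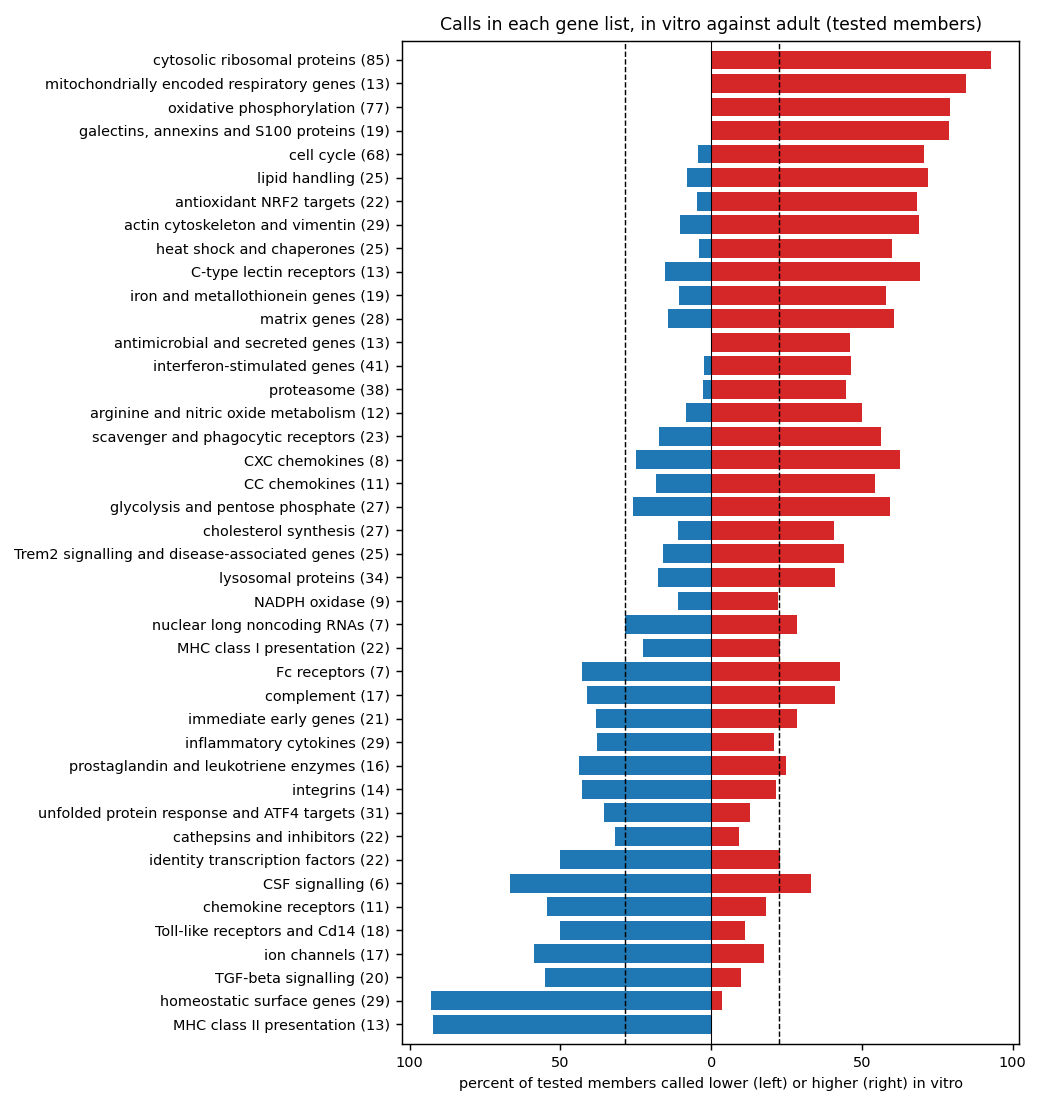
Percent of tested members called lower (left) and higher (right) in vitro against adult for each gene list, with the number tested in brackets; dashed lines mark the background of 28.5% lower and 22.4% higher over all 12157 genes. Homeostatic surface genes and MHC class II presentation lie far to the left, and ribosomal proteins, oxidative phosphorylation and galectins, annexins and S100 proteins far to the right.

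Surface genes of homeostatic microglia fell almost without exception. Of 29 listed genes, all of them tested, 27 fell (93.1% against the background of 28.5%) and 1 rose, with a median log2 fold change of -3.24 against -0.11 over all genes. The loss ran over receptors with different ligands. Among nucleotide receptors, P2ry13, which binds ADP, was at 27.6 and 19.6 CPM in vitro and 1060.1 and 971 CPM in adult microglia, 43.0-fold lower (log2 -5.43 ± 0.23, edgeR adjusted p = 5.59e-08). P2rx4, an ATP-gated channel, was the exception and rose 2.35-fold, from 111 and 115 CPM to 283 and 250.4 CPM. P2ry6, the UDP receptor linked to phagocytosis, was at 407 and 369 CPM against 471 and 458 CPM and was not called, so nucleotide receptors did not move together.

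The immune checkpoint receptor Lag3 fell 1546-fold, from 669 and 701 CPM to 0.578 and 0.309 CPM. The tetraspanin Cd81 fell 11.1-fold, from 5371 and 6573 CPM to 585 and 490.0 CPM, and Vsir, a further checkpoint protein, 5.81-fold. Integrin Itgb5 was at 351 and 268 CPM against 867 and 1378 CPM and Ltc4s, the leukotriene C4 synthase, at 314 and 257 CPM against 1065 and 1084 CPM. In vitro and adult libraries did not overlap for any of them, which adds little to calls made on the same values. Fcrls, a receptor-like protein typical of microglia, kept most of its level, at 1811 and 1535 CPM against 2865 and 2604 CPM, and this fall of 1.63-fold lost its call under 10 of the alternatives, among them each omission of 1 library.

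In microglia of the 3-week slices 3 of these genes lay between both groups. P2ry13 was at 295 and 239.6 CPM there, Lag3 at 306 and 402 CPM and Cd81 at 4139 and 3747 CPM, and 21 of the 29 genes were lower in vitro than in slices, against a background of 19.9% lower and 13.3% higher in that comparison.

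Transcription factors that define microglia fell while general myeloid factors split. Sall1, which is restricted to microglia among brain macrophages, fell 583-fold, from 128 and 108 CPM to 0.321 and 0.0842 CPM (edgeR adjusted p = 3.06e-08). Mef2c fell 3.27-fold (249.8 and 220.0 against 736 and 799 CPM) and Mef2a 2.90-fold. Of the 8 microglial factors 7 fell and none rose, with a median of -1.39.

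Among the general myeloid factors, Irf8 fell 2.53-fold (333 and 303 against 739 and 870.4 CPM) and Irf5 1.97-fold. Spi1, which encodes the myeloid master factor PU.1, was at 527 and 503 CPM against 592 and 600.0 CPM and was not called, and Runx1 overlapped between the groups at 43.3 and 37.9 against 45.9 and 42.8 CPM. In the whole list of 22 tested factors 5 rose. They were Pparg, a lipid-sensing nuclear receptor at 13.7 and 14.3 CPM against 0 in both adult libraries, the liver X receptor gene Nr1h3 (3.31 and 4.15 against 0.513 and 0.644 CPM), the MiT family members Tfec (26.2-fold) and Mitf (1.77-fold), and Bhlhe40 (15.8-fold, from under 1 CPM). Mitf kept no call under scaling by library size alone.

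Genes of TGF-beta signalling, which maintains the homeostatic state, fell at the level of receptor and response. The receptor gene Tgfbr1 was at 47.8 and 45.5 CPM in vitro and 637 and 666 CPM in adult microglia, 13.98-fold lower (log2 -3.80 ± 0.20, edgeR adjusted p = 2.21e-07). The co-receptor Eng fell 23.2-fold, from 85.6 and 81.1 CPM to 3.15 and 4.04 CPM. Smad7, a feedback inhibitor that the pathway itself induces, fell 12.1-fold, from 86.1 and 59.4 CPM to 6.90 and 5.11 CPM. Tgfbr2, the second receptor chain, was at 73.8 and 71.1 CPM against 113 and 79.2 CPM and was not called. Other regulators of the response also fell, with Skil 5.01-fold, Pmepa1 2.62-fold, Ski 2.18-fold and Smad3 1.96-fold lower, the last of them not called on thinned cells, without adult replicate 1 or without in vitro replicate 2.

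The ligand gene Tgfb1 fell 2.04-fold, from 539.5 and 478 CPM to 265 and 234 CPM, whereas Nrros, which holds the latent ligand on the microglial surface, overlapped at 261 and 238 against 198 and 265 CPM. Over the pathway 11 of 20 tested genes fell and 2 rose, with a median of -0.87. The 2 that rose, the latency protein gene Ltbp3 (9.25 and 9.54 against 0.513 and 0.129 CPM) and Thbs1, a matrix protein that can activate latent ligand (8.41 and 17.3 against 1.46 and 0.644 CPM), were of low level.

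In the CSF family, 3 of 5 receptor genes fell and 2 rose. Csf3r, the receptor of G-CSF, fell 7.62-fold, from 184 and 154 CPM to 24.7 and 19.8 CPM. Csf2rb, a beta chain of the GM-CSF receptor, rose 1.67-fold, though not under scaling by library size alone. The related Csf2rb2 rose 2.94-fold. Csf2ra, the alpha chain of the GM-CSF receptor, fell 1.53-fold (67.5 and 69.1 against 109.7 and 99.6 CPM). That call was lost under 10 alternatives, among them leaving out adult replicate 1 or either in vitro library. The third fall was that of Csf1r, 3.77-fold. The cytokine gene Csf1 itself was low in both groups, at 0.803 and 0.786 CPM against 8.64 and 7.21 CPM, and stood at 58.2 and 50.4 CPM in slice microglia. Il34 and Csf3 had almost no counts, at 0 and 0.129 CPM and 0 and 0 CPM in adult microglia, and were not tested.

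Disease-associated genes did not move as 1 block. Of 17 tested genes 9 rose and 3 fell. Of 8 genes of the Trem2 receptor and its signalling 2 rose and 1 fell, and none rose when either adult library or in vitro replicate 1 was left out or under scaling by library size alone, and 1 rose without in vitro replicate 2. Igf1, a growth factor of phagocytic microglia, rose 682-fold, from 0.879 and 1.16 CPM to 676 and 714 CPM (log2 9.44 ± 0.23, edgeR adjusted p = 9.74e-09). Fabp5, a fatty acid carrier, was at 795 and 1330.1 CPM against 2.12 and 1.16 CPM and Lgals3, galectin-3, at 1282 and 2509 CPM against 3.81 and 3.99 CPM. These genes, with Gpnmb and Spp1, were all but absent from adult microglia. Lgals3, Spp1 and Fabp5 also differed by about 1.5-fold or more between the in vitro libraries, replicate 2 being higher for each.

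Other members of these lists went the other way. Trem2, the lipid receptor that drives the response in disease models, fell 2.09-fold, from 3229 and 2588 CPM to 1372 and 1414 CPM, while its adaptor Tyrobp was at 3693 and 3734 CPM against 3330.1 and 2937 CPM and was not called. The tetraspanin Cd9 fell 6.23-fold, from 2366 and 2523 CPM to 345 and 439 CPM, and the tetraspanin Cd63 rose 3.38-fold, from 787 and 846 CPM to 2632 and 2886 CPM. Itgax, which encodes CD11c, was at 0.0963 and 0.393 CPM against 3.00 and 2.96 CPM and Cst7, cystatin F, at 7.68 and 7.24 CPM against 21.9 and 14.3 CPM. Both fell. The call for Cst7 was lost on thinned cells, without adult replicate 1 and without in vitro replicate 2.

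The slice libraries set these apart further. Cst7 stood at 917 and 1669 CPM there (in vitro against slice log2 -7.44 ± 0.40, edgeR adjusted p = 9.11e-07), far above both other groups, and Trem2 at 3193 and 3823 CPM, whereas Gpnmb at 236 and 151 CPM and Igf1 at 246 and 221 CPM were lower than in vitro. Spp1 varied between the slice libraries, at 4391 and 1253 CPM, and the difference from in vitro was not called.

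**Figure D3:**
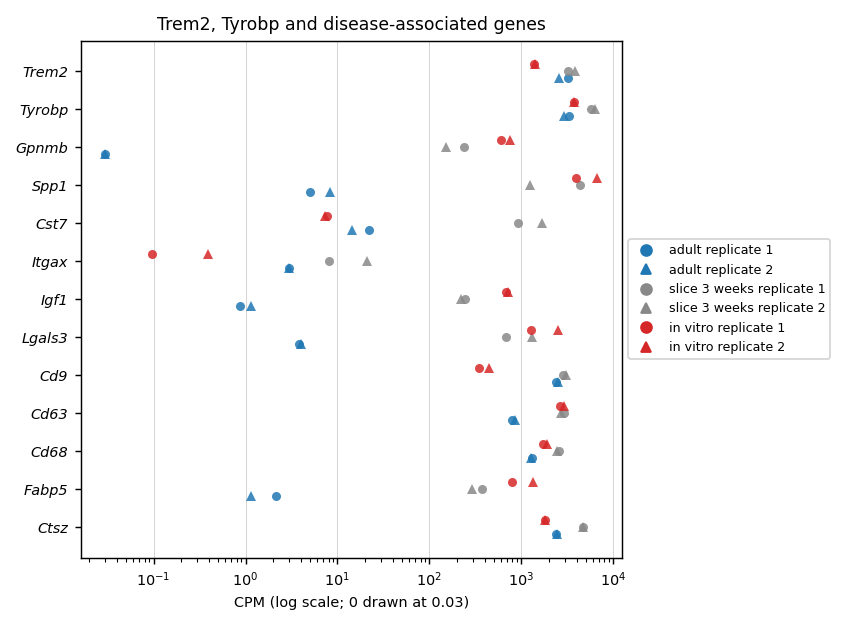
Level of 13 Trem2 signalling and disease-associated genes in the adult, in vitro and 3-week slice libraries, in CPM on a log axis; each point is 1 library. Gpnmb, Spp1, Igf1, Lgals3 and Fabp5 are high in both culture groups and near 0 in adult microglia, whereas Cst7 and Itgax are low in vitro and Cd9 is highest in adult and slice microglia.

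Lipid handling rose as a group. Of 25 tested genes 18 rose and 2 fell, 72.0% against the background of 22.4%, with a median of 2.70. For Apoe the level was 73978 and 65392 CPM in vitro and 1027 and 669.9 CPM in adult microglia, 82.1-fold higher (log2 6.36 ± 0.27, edgeR adjusted p = 6.32e-08). The fatty acid receptor Cd36 rose 751-fold, from 0.366 and 0.258 CPM to 187 and 282 CPM, and Fabp4, a fatty acid carrier, was at 26.5 and 50.01 CPM against 0 in both adult libraries. Plin2, which coats lipid droplets, rose 30.7-fold (654 and 826 against 24.3 and 24.0 CPM). Lpl, the lipoprotein lipase, rose 22.8-fold (423 and 593 against 17.3 and 27.3 CPM). In vitro libraries were above both adult libraries for all of these, which the calls largely imply.

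Genes that esterify, hydrolyse or export cholesterol rose by less. The lysosomal lipase Lipa rose 5.07-fold, Soat1, which esterifies cholesterol for storage, 2.94-fold, and the exporter Abca1 2.34-fold (145 and 129 against 62.1 and 55.1 CPM). Abcg1, the partner exporter, fell 3.24-fold, from 51.3 and 51.5 CPM to 17.9 and 13.8 CPM. The other fall was Mgll, the monoglyceride lipase that degrades the endocannabinoid 2-arachidonoylglycerol, from 81.0 and 78.4 CPM to 0.289 and 0.337 CPM, 255-fold lower (edgeR adjusted p = 3.35e-08). Lrp1, a lipoprotein receptor, was at 116 and 133 CPM against 154 and 149.5 CPM and was not called.

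Cholesterol synthesis was mixed, with 11 of 27 tested genes higher and 3 lower and a median of 0.40. Scaling by library size alone gave 7 higher and 7 lower. Leaving out either adult library or in vitro replicate 2 left 7 higher, and thinned cells left 6. Sqle, the squalene epoxidase, rose 8.59-fold from under 1 CPM, though not on thinned cells. Dhcr7, a late enzyme of the path, fell 1.86-fold, and the fatty acid desaturase Scd2 fell 18.2-fold, from 13.3 and 14.04 CPM to 0.739 and 0.758 CPM.

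Receptors for microbial glycans and modified lipids were among the most altered. Of 13 tested C-type lectin receptors 9 rose and 2 fell (1 without adult replicate 1), with a median of 3.44. Clec12a, an inhibitory receptor for uric acid crystals, rose 376-fold, from 0.732 and 0.129 CPM to 152 and 171 CPM, and the mannose receptor Mrc1 93.5-fold, from 4.39 and 3.35 CPM to 383 and 341 CPM. Clec4n (dectin-2) was at 233 and 168 CPM and Clec4e (Mincle) at 7.29 and 5.95 CPM, the latter against 0 in both adult libraries. Clec5a, which signals through Tyrobp, fell 4.08-fold (31.1 and 30.1 against 127 and 123 CPM). In slice microglia Mrc1 stood at 8.67 and 14.1 CPM and Clec12a at 11.5 and 9.69 CPM, both closer to adult microglia than to in vitro.

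Among 23 scavenger and phagocytic receptors and ligands tested, 13 rose and 4 fell, with a median of 1.75. The scavenger receptor Msr1 rose 87.7-fold, from 1.03 and 0.773 CPM to 77.9 and 79.8 CPM, and Stab1 4.49-fold, from 147 and 113 CPM to 609 and 560.1 CPM. Marco was at 21.4 and 5.25 CPM against 0.0732 and 0 CPM, an uneven pair in vitro. The TAM receptors, which clear apoptotic cells through bridging ligands, moved in opposite directions, since Axl rose 12.6-fold (49.2 and 33.7 against 4.76 and 1.80 CPM) and Mertk fell 3.65-fold (41.2 and 32.8 against 151 and 119.7 CPM). Their ligands split likewise, with Gas6 2.60-fold higher (461 and 532 against 203 and 179.5 CPM) and Pros1 9.43-fold lower (32.3 and 28.5 against 268 and 305 CPM). Cd68, the macrophage lysosomal glycoprotein, was at 1707 and 1909 CPM against 1291 and 1264 CPM, a difference below the fold threshold.

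Fc receptors split, with 3 of 7 tested genes higher and 3 lower. The high affinity receptor Fcgr1 fell 2.13-fold (191 and 182 against 444 and 351 CPM) and Fcgr4 rose 4.36-fold (78.0 and 91.9 against 20.4 and 18.5 CPM). The inhibitory Fcgr2b overlapped at 257 and 297 against 281 and 248 CPM. Fcgrt, the neonatal Fc receptor, rose 2.51-fold.

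Components and receptors of complement changed in both directions. C1q, the recognition molecule of the classical pathway, was abundant in both groups: C1qa was at 7469 and 6775 CPM against 11046 and 9251 CPM and C1qb at 8138 and 7500.2 CPM against 10759 and 10265 CPM, and neither was called. C1qc fell 1.55-fold, a change at the threshold that 10 alternatives did not call, among them leaving out adult replicate 1 or either in vitro library. Properdin, the stabiliser of the alternative pathway encoded by Cfp, rose 907-fold, from 0.806 and 0.129 CPM to 483 and 364 CPM (log2 9.57 ± 0.90, edgeR adjusted p = 1.04e-05). The anaphylatoxin receptors C3ar1 and C5ar1 rose 2.19-fold and 2.58-fold (589.8 and 573 against 171 and 279 CPM for the latter), and C5ar2 fell 6.501-fold. C3 remained low, at 5.49 and 2.55 CPM against 0.659 and 0.129 CPM. Itgam, the CR3 chain CD11b used for the sort, fell 1.85-fold (107 and 100.3 against 204 and 180.1 CPM).

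Toll-like receptor genes and their partners were lower rather than higher. Of 18 tested genes 9 fell and 2 rose, with a median of -0.85. Cd14, the co-receptor for lipopolysaccharide, fell 2.01-fold, from 521 and 558 CPM to 266 and 271 CPM, whereas Tlr4 itself overlapped at 21.2 and 19.9 against 21.4 and 20.9 CPM. The inhibitory pair Cd180 and Ly86 fell 3.62-fold and 2.53-fold, and Unc93b1, which carries nucleic acid receptors to the endosome, 2.31-fold (726 and 606 against 1504 and 1577 CPM). Tlr2 and Tlr7 were not called. Tlr13 rose 1.65-fold but not under scaling by library size alone or without adult replicate 2, and Tlr8 rose to 5.17 and 5.39 CPM from 0.0732 and 0 CPM.

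Inflammatory cytokine genes were low in both groups. Il1a, an alarmin, fell 74.0-fold, from 86.9 and 71.1 CPM to 1.35 and 0.786 CPM (edgeR adjusted p = 2.12e-07), while Il1b rose 10.7-fold, from 1.68 and 1.29 CPM to 23.2 and 8.48 CPM. The antagonist Il1rn rose 10.2-fold to 7.71 and 6.76 CPM. The 2 interleukin-1 agonists thus moved in opposite directions. Tnf was at 10.1 and 5.95 CPM against 2.49 and 2.83 CPM, a rise of 3.01-fold lost without either adult library, without in vitro replicate 1 and under scaling by library size alone. The sensor Nlrp3 fell 2.60-fold, though not without in vitro replicate 2, and its adaptor Pycard was not called at 415 and 405 against 617 and 596 CPM. Nfkb1 fell 2.57-fold, and Nfkbia, an inhibitor that NF-kB induces, overlapped at 149.8 and 104 against 154 and 146 CPM. Of 29 tested genes 6 rose and 11 fell, and 7 fell without in vitro replicate 2.

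CC chemokines rose in 6 of 11 cases and fell in 2, or in 1 when either in vitro library was left out. Ccl3 rose 4.20-fold, from 38.2 and 49.2 CPM to 183 and 185 CPM, Ccl6 2.06-fold, Ccl9 2.83-fold (733 and 974 against 351 and 252 CPM) and Ccl7 9.59-fold. The monocyte attractant Ccl2 rose 6.75-fold, from 16.7 and 6.18 CPM to 83.0 and 71.4 CPM, and was not called without adult replicate 2. Ccl12 fell 2.82-fold (86.2 and 85.7 against 290.5 and 194 CPM). Ccl4 was at 72.3 and 89.4 CPM against 59.8 and 49.1 CPM and was not called. In slice microglia Ccl3 and Ccl4 stood much higher, at 870.3 and 732 CPM and 955 and 627 CPM.

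CXC chemokines gave some of the largest ratios. Pf4 was at 2043 and 1992 CPM against 4.32 and 1.29 CPM, 719-fold higher (edgeR adjusted p = 3.84e-06), and Cxcl14 at 166 and 180.4 CPM against 0.293 and 0 CPM. Cxcl2, a neutrophil attractant, was at 12.6 and 4.27 CPM against 0 in both adult libraries, and Cxcl16, which is also a scavenger receptor, rose 2.97-fold. Cxcl10, an interferon-induced chemokine, was at 2.25 and 2.64 CPM in vitro and at 35.6 and 1.16 CPM in adult microglia. Adult replicate 1 alone was high, and without it the sign turned, to 1.17 on the log2 scale. Of 8 tested 5 rose and 2 fell, and both falls, Cxcl10 and Cxcl13 (5.71 and 0 CPM in adult microglia and 0 in vitro), were not called without adult replicate 1.

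Chemokine receptors were mostly lower, with 6 of 11 tested genes down and 2 up. The chemerin receptor Cmklr1 fell 2.79-fold. Ccr1 rose 6.93-fold, from 19.1 and 14.4 CPM to 122 and 111 CPM. Cxcr4, which guides cells along Cxcl12, was at 9.12 and 11.4 CPM against 0 in both adult libraries, at least 73.2-fold higher. Ccr2, a monocyte marker, was low in both groups, at 1.16 and 0.982 against 2.64 and 3.35 CPM, a fall of 2.80-fold whose call was lost on each omission of 1 library.

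Interferon-stimulated genes rose far more often than they fell. Of 44 listed genes 41 were tested, 19 rose (46.3% against the background of 22.4%) and 1 fell, with a median of 1.08. Ifi27l2a rose 47.6-fold, from 44.2 and 15.8 CPM to 1359 and 1498 CPM (log2 5.56 ± 0.46, edgeR adjusted p = 4.27e-06). The membrane proteins Ifitm2 and Ifitm3, which block virus entry, rose 227-fold and 22.4-fold, to 805 and 836 CPM and 802 and 909 CPM. Bst2 (tetherin) rose 4.67-fold (844 and 716 against 190.4 and 144 CPM). Both in vitro libraries were close to each other for all of these, while adult replicate 1 was above adult replicate 2 for each.

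The ubiquitin-like Isg15 was at 67.1 and 63.2 CPM against 37.3 and 14.6 CPM, 2.51-fold higher. Ifit3 was at 43.6 and 44.3 CPM against 37.1 and 12.2 CPM and was not called. Gbp7, a guanylate-binding protein, was the member that fell, 2.55-fold, a call lost without adult replicate 2 or in vitro replicate 2. Against slice microglia 30 of the 41 were higher in vitro and 0 lower, and Ifitm3 stood at 63.5 and 39.3 CPM in slices, near adult levels.

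The promoter of Isg15 shows the letters that interferon-activated factors are known to bind. The sequence is from RefSeq (GRCm38.p6, chr4:156200769-156201068, minus strand) and runs from 250 bases before to 50 bases after the gene start, with the run formed by 3 overlapping matches of GAAA and GAAA set apart by any 2 bases in capitals.
Isg15: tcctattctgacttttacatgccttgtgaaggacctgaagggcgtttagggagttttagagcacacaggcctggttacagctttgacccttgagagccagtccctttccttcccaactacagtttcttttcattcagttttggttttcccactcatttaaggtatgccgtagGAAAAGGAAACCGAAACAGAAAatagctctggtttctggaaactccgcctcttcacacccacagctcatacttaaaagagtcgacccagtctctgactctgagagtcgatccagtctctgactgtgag
This motif, read on both strands, was in 21 of 34 promoters of the listed interferon genes with a promoter entry (61.8%) and in 3.99% of 27025 promoters of all genes. The match describes the letters only.

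MHC class II presentation fell in 12 of 13 tested genes and rose in none, with a median of -2.66. The class II chain gene H2-Aa was at 19.8 and 13.1 CPM in adult microglia and at 0.0963 and 0 CPM in vitro, and the invariant chain Cd74 fell 4.50-fold, from 116 and 103 CPM to 34.4 and 14.4 CPM. The peptide editors H2-DMa and H2-DMb1 fell 6.34-fold and 4.99-fold, and H2-Oa, a subunit of their inhibitor, 35.8-fold (edgeR adjusted p = 2.21e-07). The co-stimulator Cd86 fell 12.5-fold, from 288 and 251.4 CPM to 24.9 and 18.3 CPM. The thiol reductase Ifi30 was the tested member without a call, at 114 and 135 against 139 and 92.6 CPM with overlapping groups. Ciita, the transactivator of class II genes, had at most 2 counts in a library and was not tested.

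MHC class I genes were mixed, with 5 of 22 tested genes higher and 5 lower, counts that ran from 3 to 7 and from 3 to 9 over the alternatives, with 3 higher without adult replicate 2 and 3 lower without in vitro replicate 2. The class I heavy chain H2-D1 rose 1.88-fold, from 1045 and 764 CPM to 1742 and 1664 CPM, though not without adult replicate 2, and the light chain B2m overlapped at 4244 and 3855 against 3949 and 2742 CPM. Reads of the H2 genes can be shared between near-identical copies, so values of single H2 genes are uncertain. The peptide transporter Tap2 fell 2.68-fold and the proteasome activator Psme2 rose 2.01-fold. The shares of the class I list, 22.7% higher and 22.7% lower, lay near the background of 22.4% and 28.5%.

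Lysosomal proteases changed in both directions. Cathepsin B (Ctsb) rose 3.78-fold, from 2885 and 2974 CPM to 10427 and 11708 CPM (edgeR adjusted p = 2.83e-06), while cathepsin F (Ctsf) fell 10.2-fold, from 310.3 and 281 CPM to 30.2 and 28.0 CPM, and the asparaginyl protease legumain (Lgmn) 3.20-fold, from 7007 and 7848 CPM to 2331 and 2314 CPM. Cathepsin D (Ctsd) overlapped at 9322 and 9916 against 10111 and 8173 CPM, as did cathepsin L (Ctsl). The inhibitor stefin B (Cstb) rose 8.55-fold, from 144 and 146 CPM to 1184 and 1299 CPM. Over the list, 2 of 22 tested genes rose (9.09%) and 7 fell (31.8%), against a background of 22.4% and 28.5%. On thinned cells 5 rose, and the number of rises also changed without in vitro replicate 2.

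The vacuolar ATPase, the proton pump that acidifies lysosomes, rose in 11 of 16 tested genes. Its subunit Atp6v0d2, typical of macrophages that fuse or take up much material, was at 20.7 and 31.5 CPM against 0 in both adult libraries, at least 186-fold higher, and at 33.6 and 27.7 CPM in slice microglia. Of 18 tested lysosomal membrane proteins and activators 3 rose (16.7%) and 5 fell (27.8%), near the background of 22.4% and 28.5%. Scaling by library size alone gave 1 rise and 8 falls. Lamp1, at 2159.8 and 2039 against 1324 and 1267 CPM, rose 1.62-fold but not under scaling by library size alone. Laptm5 fell 2.58-fold and the regulator Tfe3 2.13-fold, and progranulin (Grn) was at 2129 and 2222 CPM against 1870.0 and 1656 CPM without a call.

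Genes of sugar metabolism changed in both directions. The fructose transporter Slc2a5, a marker of microglia, fell 1982-fold, from 689 and 608 CPM to 0.514 and 0.140 CPM (edgeR adjusted p = 1.62e-06). The glucose transporter Slc2a1 fell 2.44-fold and hexokinase Hk2 3.66-fold, from 231 and 150.2 CPM to 62.1 and 42.1 CPM. Gapdh rose 3.35-fold (1156 and 1484 against 442 and 347 CPM), Pgam1 3.86-fold, the pyruvate kinase Pkm 4.10-fold (1005 and 1173 against 255 and 276 CPM) and the lactate dehydrogenase Ldha 3.54-fold. In the pentose phosphate path G6pdx rose 2.94-fold and Taldo1 2.25-fold. The list counted 16 higher and 7 lower of 27, with a median of 0.74, and 3 were lower without adult replicate 1 or in vitro replicate 2 and 4 without in vitro replicate 1. Against slice microglia 2 were higher and 15 lower, and Ldha stood at 1006 and 961 CPM there.

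Nuclear genes of oxidative phosphorylation rose in 61 of 77 tested cases with no fall and a median of 1.17. The cytochrome oxidase subunit Cox6c rose 3.68-fold, from 222 and 201 CPM to 755 and 801 CPM, and the ATP synthase subunit Atp5l 3.05-fold, from 296 and 294 CPM to 869 and 930.2 CPM. Cox6a2, a muscle-type subunit, was at 6.78 and 7.55 CPM against 8.86 and 14.6 CPM and was not called. The genes of the mitochondrial genome rose in 11 of 13 cases, or 7 without adult replicate 2, with mt-Co1 at 5324 and 5449.8 CPM against 1265 and 931 CPM, although the cell filter itself acts on these genes. Median mitochondrial UMIs per cell were 2.25% and 2.44% in vitro and 1.298% and 0.980% in adult microglia. The smaller rises in both groups of genes, such as 1.79-fold for Atp5b and 1.78-fold for mt-Nd1, were not called under scaling by library size alone.

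Ribosomal protein genes rose almost throughout. Of 85 cytosolic ribosomal protein genes tested 79 rose and none fell, with a median of 1.296. Among them Rps19 rose 3.17-fold, from 1042 and 1125 CPM to 3342 and 3537 CPM, and Rpl41 3.31-fold, from 1535 and 1315 CPM to 4429.7 and 4997 CPM. Many ribosomal protein genes have processed copies with which reads can be shared. In slice microglia Rps19 stood at 3472 and 5396 CPM. In the proteasome 17 of 38 tested genes rose and 1 fell, with a median of 0.47, but scaling by library size alone left 8 rises. Psmb5, a catalytic subunit, rose 2.15-fold (274 and 287 against 137 and 124 CPM), and the member that fell, Psma8, was of low level (1.51 and 1.91 against 5.20 and 7.60 CPM).

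Antioxidant targets of the factor NRF2 rose in 15 of 22 tested cases, 68.2% against the background of 22.4%, and fell in 1, with a median of 1.56. The peroxiredoxin Prdx1 was at 3318 and 3326 CPM in vitro and 355 and 478 CPM in adult microglia, 7.98-fold higher (log2 3.00 ± 0.22, edgeR adjusted p = 1.87e-06). Haem oxygenase (Hmox1), which frees iron from haem, rose 19.9-fold, from 31.7 and 26.3 CPM to 584 and 572 CPM. Thioredoxin (Txn1) rose 6.96-fold, Blvrb, which reduces biliverdin, 7.26-fold and sulfiredoxin (Srxn1) 9.47-fold. Nfe2l2, the gene of NRF2 itself, was at 199 and 178 CPM against 251.3 and 237 CPM and was not called. Gclc, the catalytic subunit of glutathione synthesis, fell 2.21-fold while its modifier Gclm rose 1.92-fold. The call for Gclc was lost without adult replicate 1 or in vitro replicate 2. Nqo1, a common readout of NRF2, was near 0 in all 4 libraries.

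The Prdx1 promoter carries 1 match of the antioxidant response letters TGACNNNGC. It is given from RefSeq (GRCm38.p6, chr4:116685349-116685648, plus strand), with the match, which lies on the reverse strand, in capitals.
Prdx1: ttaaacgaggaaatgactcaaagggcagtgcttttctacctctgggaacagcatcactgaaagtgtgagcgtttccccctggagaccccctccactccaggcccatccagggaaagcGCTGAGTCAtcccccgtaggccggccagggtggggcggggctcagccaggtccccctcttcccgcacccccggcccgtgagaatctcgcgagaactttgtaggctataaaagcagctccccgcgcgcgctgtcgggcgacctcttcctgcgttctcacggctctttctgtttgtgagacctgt
On both strands the letters TGACNNNGC were found in 8 of 20 promoters of the listed NRF2 targets (40.0%) and in 13.99% of all 27025 promoters.

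Iron storage rose with them. Ftl1 was at 35824 and 38411 CPM against 3122 and 3688 CPM and Fth1, the ferritin heavy chain, at 23959 and 27218 CPM against 2939 and 2596 CPM, 10.9-fold and 9.25-fold higher (edgeR adjusted p = 1.07e-07 and 2.73e-07). The transferrin receptor Tfrc, which is known to be regulated opposite to ferritin by iron, also rose 2.84-fold, from 2.78 and 2.96 CPM to 7.71 and 8.62 CPM. Slc40a1 (ferroportin), the iron exporter, fell 1.83-fold, from 149.9 and 164 CPM to 93.2 and 78.9 CPM, a call lost without in vitro replicate 2, and stood at 17.1 and 16.5 CPM in slices. The metallothioneins Mt1 and Mt2 rose 4.40-fold and 16.3-fold (1029 and 1059.7 and 66.0 and 94.8 CPM in vitro). Mt3 was at 4.47 and 0.258 CPM in adult microglia against 0.225 and 0.281 CPM, and its fall vanished without adult replicate 1, at 0.073 on the log2 scale. In all 11 of 19 tested genes rose and 2 fell, with 7 rises on thinned cells.

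Of 25 tested heat shock genes and chaperones 15 rose and 1 fell, with a median of 0.69, and 9 rose under scaling by library size alone. Hspa8 rose 2.56-fold (1860.4 and 1875 against 868 and 592 CPM) and Hsp90ab1 3.01-fold (782 and 801 against 330.3 and 196 CPM), whereas the stress-inducible Hspa1a was at 2.02 and 1.77 CPM against 20.4 and 0.258 CPM, high in adult replicate 1 only and not called. Of 15 tested genes listed for endoplasmic reticulum chaperones and their control 0 rose and 6 fell, or 11 under scaling by library size alone. Targets of the factor ATF4 rose in 4 and fell in 5 of 16 cases (25% and 31.2%), near the background of 22.4% and 28.5%. Xbp1 fell 1.77-fold and Slc3a2, an amino acid transporter chain, 1.79-fold. The genes that rose were Atf3 (3.45-fold), Atf5 (3.34-fold), Asns (6.51-fold) and Psat1 (2.44-fold). The last pair, enzymes of amino acid synthesis, reached far higher levels in slices, with Psat1 at 195 and 206 CPM.

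Immediate early genes, which respond within minutes to stimulation and to tissue dissociation, fell and rose in similar numbers, 8 and 6 of 21 tested. Jun fell 3.38-fold (98.9 and 94.5 against 373 and 281 CPM), Junb 3.34-fold, Btg2 9.88-fold (38.2 and 21.6 against 355 and 236 CPM) and Rhob 6.35-fold (75.4 and 68.1 against 520.3 and 391 CPM). Klf2 rose 6.46-fold, from 20.1 and 8.5004 CPM to 89.5 and 95.4 CPM, and Ier3 10.3-fold. Fos was at 40.2 and 24.8 CPM against 16.0 and 0.773 CPM and Egr1 at 5.49 and 2.41 CPM against 13.04 and 1.55 CPM. For both the adult libraries differed widely, replicate 1 being the higher. Egr1 was not called, and the call for Fos was lost under 3 alternatives, among them leaving out in vitro replicate 1.

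Mitosis genes rose throughout. All 27 tested mitosis genes rose, with a median of 3.63. Of 22 replication genes 14 rose, with a median of 1.11, and this count was 4 without adult replicate 1, 5 without in vitro replicate 2 and 6 under scaling by library size alone. The centromeric histone Cenpa was at 112 and 156 CPM against 4.83 and 4.64 CPM, 28.3-fold higher (log2 4.82 ± 0.26, edgeR adjusted p = 2.66e-07), and survivin (Birc5) at 76.4 and 126 CPM against 3.88 and 2.83 CPM. The kinase Cdk1 rose 8.32-fold and the proliferation marker Mki67 14.1-fold, from 1.98 and 1.67 CPM to 20.8 and 30.6 CPM. In vitro replicate 2 was above replicate 1 for each of these. Pcna, at 67.7 and 72.9 CPM against 40.9 and 51.3 CPM, was not called.

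Regulators of G1 changed in both directions, with 7 of 19 tested genes higher and 3 lower. The inhibitor Cdkn1a (p21) rose 7.07-fold, from 15.8 and 16.4 CPM to 114 and 114 CPM, and Cdk4 1.97-fold. Falls were seen for the inhibitor Cdkn1c (p57), 27.0-fold from 26.2 and 23.3 CPM to 0.963 and 0.870 CPM, for Cdk6 and for Myc, 6.08-fold from 18.5 and 53.1 CPM to 6.78 and 4.995 CPM. Slice microglia had similar mitotic levels, with Mki67 at 35.8 and 40.2 CPM, and higher Cdkn1a at 233 and 419 CPM.

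The Cenpa promoter (RefSeq, GRCm38.p6, chr5:30666636-30666935, plus strand) holds both letters known from promoters of mitotic genes, 1 TTTGAA and 2 CCAAT, the latter read in reverse, all in capitals.
Cenpa: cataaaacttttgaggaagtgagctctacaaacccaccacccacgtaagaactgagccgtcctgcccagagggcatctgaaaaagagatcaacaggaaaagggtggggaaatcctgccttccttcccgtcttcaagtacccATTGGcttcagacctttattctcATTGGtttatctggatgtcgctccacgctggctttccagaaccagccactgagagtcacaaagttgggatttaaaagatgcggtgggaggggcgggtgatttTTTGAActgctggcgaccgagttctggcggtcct
Over 23 mitosis genes with a promoter entry 17 held TTTGAA on either strand (73.9%, against 20.2% of all 27025 promoters) and 21 held CCAAT (91.3%, against 41.1%).

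Matrix genes were mostly higher. Of 28 tested genes 17 rose and 4 fell, with a median of 3.68. Fibronectin (Fn1) rose 227-fold, from 0.220 and 0.386 CPM to 39.7 and 98.1 CPM, and Ecm1 97.9-fold, from 0.586 and 0.386 CPM to 40.7 and 54.5 CPM. The hyaluronan receptor Cd44 rose 199-fold (54.5 and 72.9 against 0.513 and 0.129 CPM), the protease Adam8 172-fold (109 and 185 against 0.806 and 0.902 CPM) and the macrophage elastase Mmp12 51.9-fold (40.3 and 87.3 against 1.17 and 1.29 CPM). Olfml3, a secreted protein of microglia, fell 33.4-fold, from 2829 and 2306 CPM to 78.4 and 75.5 CPM. Unlike in vitro, slice microglia held Sparc at 2225 and 2282 CPM and Olfml3 at 2093 and 1383 CPM, close to the adult level for Sparc.

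Among integrins, which bind cells to matrix and to other cells, 3 of 14 tested rose and 6 fell. Itga4 rose 51.5-fold, from 0.586 and 0.644 CPM to 33.2 and 30.1 CPM, and Itga5, a fibronectin receptor chain, 3.19-fold. Itgb2, the partner of CD11b, fell 2.10-fold (166 and 167 against 331 and 367 CPM) and Itgb3 52.0-fold. Itga6 overlapped, at 92.4 and 91.9 against 92.4 and 90.0 CPM.

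Galectins, annexins and S100 proteins, small proteins that bind glycans, membranes and calcium, rose in 15 of 19 tested cases and fell in 0, with a median of 3.58. Galectin-1 (Lgals1) was at 2592 and 3401 CPM against 5.79 and 4.89 CPM, 561-fold higher (edgeR adjusted p = 2.69e-08), and Anxa2 at 234 and 381 CPM against 0.952 and 0.902 CPM. Anxa5, which binds phosphatidylserine, rose 14.6-fold from a substantial adult level (627 and 676 against 38.4 and 50.9 CPM), as did S100a1, 13.1-fold. Lgals9 and Anxa3 were not called.

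Vimentin and most actin regulators were raised too. Vim rose 227-fold, from 1.61 and 1.67 CPM to 244 and 502 CPM, with in vitro replicate 2 the higher. The actin-sequestering Tmsb10 rose 3.38-fold, cofilin (Cfl1) 2.62-fold (2301 and 2470.1 against 894 and 929 CPM) and coactosin (Cotl1) 3.24-fold. Fascin (Fscn1), which bundles actin in protrusions, fell 1344-fold, from 693 and 919 CPM to 0.835 and 0.365 CPM (log2 -10.39 ± 0.40, edgeR adjusted p = 3.87e-08). In the list 20 of 29 tested genes rose and 3 fell, with a median of 1.29, and 1 fell without in vitro replicate 2.

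**Figure D4:**
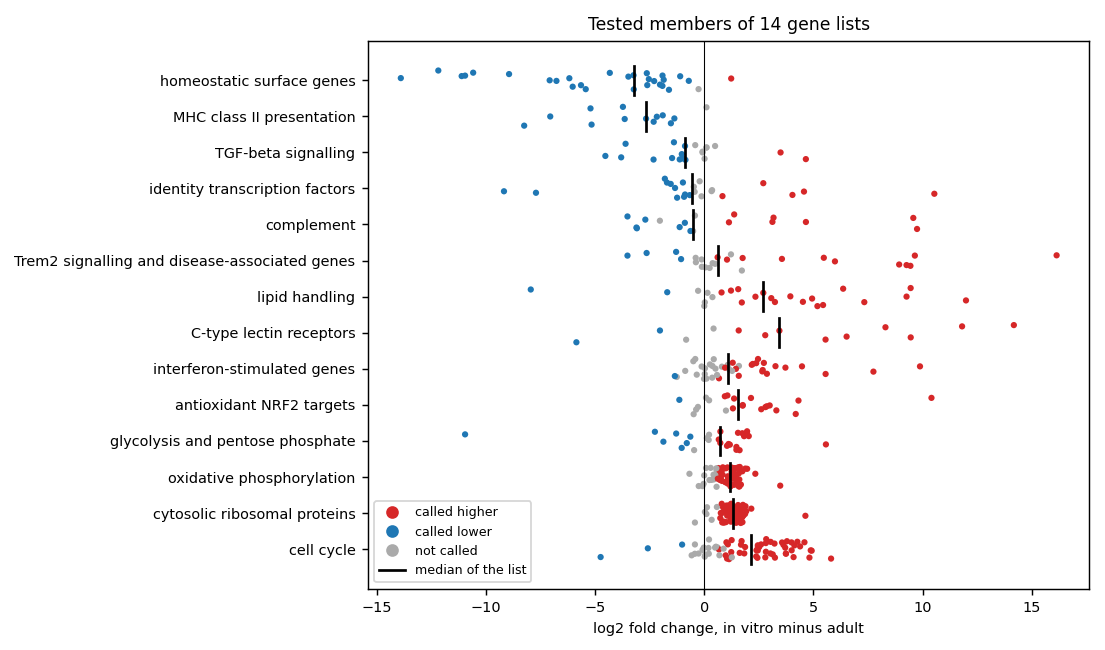
Log2 fold change (in vitro minus adult) of each tested member of 14 gene lists; points are genes coloured by call and black bars are list medians. MHC class II presentation and homeostatic surface genes lie below 0 almost throughout, whereas C-type lectin receptors spread from large falls to large rises.

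Secreted antimicrobial genes rose in 6 of 13 tested cases and fell in none. Lyz2 was at 36986 and 36561 CPM against 399.9 and 379 CPM, 94.5-fold higher (edgeR adjusted p = 1.44e-07), and Lyz1 29.4-fold higher. Since the 2 lysozyme genes are near copies, part of the Lyz1 reads may belong to Lyz2. Pla2g7, which inactivates platelet-activating factor, rose 73.6-fold (116 and 97.4 against 2.12 and 0.773 CPM), and Cd5l, a macrophage survival protein, 87.6-fold. Lcn2 and Slpi were near 0 in all 4 libraries.

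In the NADPH oxidase, which makes superoxide, the catalytic chain and the channel beside it changed in opposite directions. The catalytic chain gene Cybb rose 49.9-fold, from 6.15 and 1.80 CPM to 209 and 188 CPM, while its partner Cyba was at 2117 and 2093 CPM against 1484 and 1578 CPM without a call, and the cytosolic subunits Ncf1 and Ncf4 were not called either. The GTPase Rac2 rose 2.08-fold. Hvcn1, the proton channel that balances the charge moved by the oxidase, fell 4.79-fold, from 157 and 159 CPM to 32.8 and 33.1 CPM.

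Other ion channels were mostly lower, 10 of 17 tested against 3 higher, with a median of -1.10. The potassium channels Kcnk6 and Kcnk13, the latter known as THIK-1, fell 4.15-fold and 2.51-fold (57.1 and 48.0 against 123 and 141 CPM). Kcnn4, a calcium-activated potassium channel, rose 6.11-fold, from 5.71 and 4.51 CPM to 32.6 and 29.9 CPM, and Clic4 23.2-fold.

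Enzymes of eicosanoid synthesis fell in 7 and rose in 4 of 16 tested cases. Cyclooxygenase-1 (Ptgs1), the constitutive enzyme, fell 5.28-fold, from 801 and 839 CPM to 179 and 132 CPM, and the prostaglandin D synthase Hpgds 1.72-fold. Cyclooxygenase-2 (Ptgs2) was at 0.128 and 0 CPM in vitro, or 4 counts in all, and at 0 in both adult libraries. Alox5ap overlapped at 451 and 468 against 431 and 462 CPM.

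In arginine metabolism Nos2, the inducible enzyme that makes nitric oxide, had no count in any of the 4 libraries. Spermine synthase (Sms) rose 2.70-fold and Srm, which makes its substrate, fell 1.59-fold. The latter call was lost under 5 alternatives, among them leaving out either in vitro library. Of 12 tested genes 6 rose and 1 fell.

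Both abundant nuclear RNAs moved, in opposite directions. Malat1 fell 2.55-fold, from 36406 and 45191 CPM to 16113 and 15827 CPM, and Neat1, the scaffold of paraspeckles, rose 8.34-fold, from 30.1 and 33.7 CPM to 244 and 288 CPM (edgeR adjusted p = 4.88e-07).

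To see whether these shifts ran through all cells, each cell was thinned to 1000 UMIs, which left out 66 and 205 shallower adult cells and no in vitro cell. Over the 29 homeostatic surface genes the median adult cell held 43 UMIs in replicate 1 and 45 in replicate 2, and the median in vitro cell 5 and 4. Not 1 in vitro cell reached the 5th percentile of the adult libraries. For lipid handling the medians were 74 and 66 UMIs in vitro against 2 and 2, and 99.8% and 99.7% of in vitro cells lay above the 95th percentile of both adult libraries. Apoe carried most of that sum, since the genes of lipid uptake, storage and hydrolysis had medians of 3 and 4 UMIs against 1 and 1, and 34.2% and 45.6% of in vitro cells lay above the same line. For iron and metallothionein genes 99.9% and 99.8% of in vitro cells lay above the adult range so defined, with medians of 52 and 57 against 7 and 8 UMIs, most of them from Ftl1 and Fth1.

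Other groups overlapped between single cells of the 2 kinds. For ribosomal proteins 72.4% and 81.5% of in vitro cells lay above the 95th percentile of adult cells, for interferon-stimulated genes 58.3% and 59.4%, and for galectins, annexins and S100 proteins 54.8% and 72.7%. Mitosis genes passed that line in 11.3% and 17.8% of in vitro cells. Complement components, most of whose UMIs came from the 3 C1q genes, had medians of 21 and 19 UMIs against 34 and 32, whereas complement receptors and regulators had a median of 1 UMI in all 4 libraries. At 1000 UMIs per cell a low count of a list in 1 cell is also limited by sampling.

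**Figure D5:**
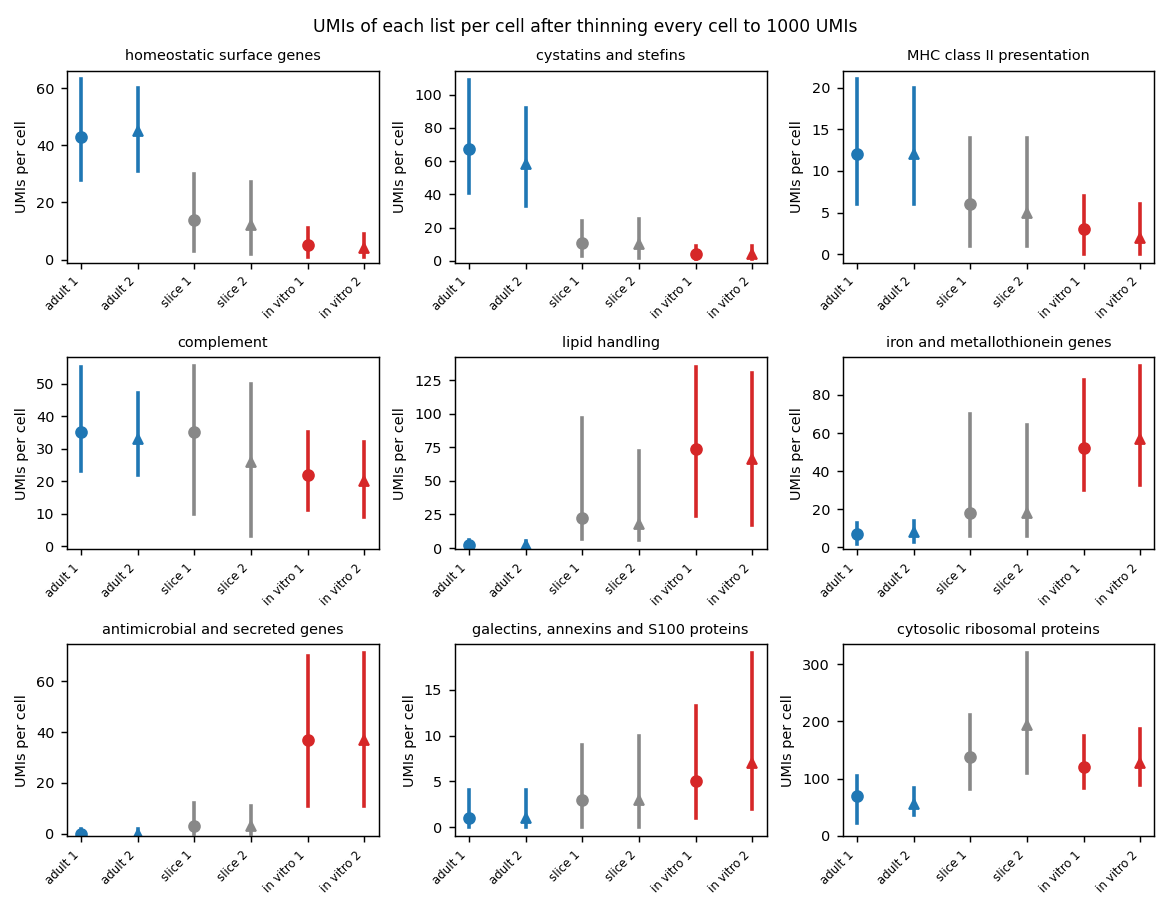
UMIs per cell of 9 gene lists after thinning each cell to 1000 UMIs, for adult, 3-week slice and in vitro libraries; points are medians over cells and bars run from the 5th to the 95th percentile. Homeostatic surface genes and lipid handling show ranges of in vitro and adult cells that do not touch, with slice cells between them for the former, and Apoe makes up most of the lipid handling sum.

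Single genes were followed as the share of cells with a UMI. Gpnmb was found in 28.6% and 37.5% of thinned in vitro cells (74.3% and 87.4% with all UMIs) and in 0% of adult cells, which allows a share of up to 0.0988% and 0.111% (exact 95% interval). This limits the cells with a UMI at this depth and not the cells that express the gene. Ms4a7 was found in 85.2% and 84.6% of thinned in vitro cells (99.6% and 99.9% with all UMIs) and in 0.188% and 0.12% of adult cells (0.421% and 0.142%). Apoe was found in every thinned in vitro cell and in 32.5% and 18.8% of adult cells (60.8% and 27.5% with all UMIs). Ms4a7 thus separated the groups nearly cell by cell, while Apoe RNA was found in a part of the adult cells.

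Of the genes that fell, Sparc was found in 94.2% and 89.5% of thinned adult cells (99.5% and 96.0% with all UMIs) and in 0.0414% and 0% of in vitro cells (0.703% and 0.149%). Siglech was found in 70.7% and 61.4% of thinned adult cells and in 0.0827% and 0% of in vitro cells. Mki67, by contrast, was found in few cells of either kind, 1.49% and 1.75% of thinned in vitro cells (10.7% and 15.4% with all UMIs) against 0.161% and 0.0903%. Each library holds 1 sorted population, so the share that free RNA in the droplets can give was not measured, and intervals cover counting error only.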

How the data were processed

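Single cell 3′ RNA-seq libraries (10x Genomics v2) of sorted microglia were analysed. Reads were run through Cell Ranger by the authors, who deposited UMI counts per gene and cell barcode, 1 table per library; the submitters' processing notes name version 1.3.0 and build mm10. Whether the tables precede the authors' aggregation step is not given in the sources used here. Alignment, cell calling and UMI collapsing were thus done upstream, and cells past the limits used here were present in the tables. The 10 tables held 18292 gene symbols; 51 repeated rows were summed, and a gene missing from a table was taken as 0.

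No doublet caller was run, so the UMI maximum was the only limit on doublets, and their removal by the authors is not given in the sources used here. Cells were filtered as described, counts were summed per library, and all 10 libraries were fitted in 1 edgeR 4.0.16 quasi-likelihood model of 5 groups (R 4.3.3, TMM factors, filterByExpr), so that groups share 1 estimate of the spread. The script was tested on simulated data, with 100 genes changed 2-fold and 100 changed 4-fold. It recovered 61 of the former and 100 of the latter, and called 13 unchanged genes. A gene without a call can thus still differ by 2-fold. Alternatives were the size factors and the Wald test of DESeq2 1.42.0, scaling by library size alone, no filter on low counts or on cells, cells thinned to 1000 UMIs (seed 1), only the libraries compared, study label as covariate, a replicate block, and leaving out each library. Folds are ratios of mean CPM. Named genes were the 12 largest rises and falls among called genes of at least 100 CPM, the fixed genes of each list with up to 6 further members by CPM, and members called against the direction of their list. The members and lists were chosen with earlier results of these data known. Promoters were read from RefSeq (GRCm38.p6), from 250 bases before to 50 bases after the gene start. Genes of the lists that no table holds were not analysed here. Values of a few listed genes are not reported here, although they stay in the counts over their lists.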

Additional observations from a re-analysis of the deposited data

How the results depend on the processing

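No gene was called in the opposite direction under any alternative. The counts of rises and falls against adult microglia stayed within 1.5 times under every alternative except cells thinned to 1000 UMIs, with 2221 rises and 2285 falls, and the omission of 1 library, which gave 2400 to 2724 rises and 2206 to 3188 falls. Calls shared by the full fit and all 4 such omissions numbered 2131 rises and 2025 falls. Against slice 3 weeks, omissions gave 1229 to 2207 rises and 1222 to 2561 falls, and thinning 1176 and 1504. Scaling by library size alone gave 2017 rises and 4718 falls. Of 512 named genes tested, 382 were called, 294 of them under every alternative. Signs turned in 6 of 6593 cases, all of them genes high in adult replicate 1 alone: over the omissions of 1 library the log2 fold change ran from -4.93 to 0.74 for Clu, -3.86 to 1.17 for Cxcl10, -11.04 to 2.89 for Hbb-bt, -4.09 to 0.073 for Mt3 and -14.66 to 1.38 for Ttr, the positive values being those without adult replicate 1, and with study label as covariate Hbb-bt was at 0.96. The cause was not tested. The median sign of 13 lists or their parts depended on the setting, so these are given by counts, which also depend on the setting: in 14 of 42 whole lists the rises or falls moved by over 1.5 times under at least 1 alternative (lists with over 3 calls). Replicate numbers did not pair the samples (correlation of deviations 0.036 for adult and in vitro), and the replicate block gave 2684 rises and 3398 falls. The UMIs of adult replicate 2, the shallowest of the 4 libraries, limit what can be detected in adult microglia.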
